A study of Mus musculus with 36 samples.

Results

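The entries described here are all rows of a mouse small-intestinal miRNA table whose name starts with mmu-mir-5102, mmu-mir-5105, mmu-mir-5109, mmu-mir-5115 or mmu-mir-5117. They number 90 of the 2670 entries of the table. They were chosen by name, and the 5 names were selected on their high values in the goblet libraries of this same table. The goblet values below are therefore a description, and no test is given for them. mir-5102, mir-5105 and mir-5109 have 17 entries each, mir-5115 has 15, mir-5117-3p has 16 and mir-5117-5p has 8. Of the 90 entries, 6 carry a bare name, and the others carry a suffix with a sign and a number of bases. The suffix is called the offset here and is read as the distance between the start of the read and the start of the named miRNA, a meaning that is not given in the sources used here. Offsets ran from -8 to 8.

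Small RNA of C57BL6/2J mouse small intestine was sequenced after fluorescence-activated sorting into 8 populations, in 31 libraries made with the TriLink CleanTag ligation kit. There were 4 Goblet, 3 Tuft, 6 Paneth, 4 Sox9 Negative, 4 Sox9 Low, 4 Sox9 High, 2 Lgr5 High and 4 CD24Low libraries. Genotype and age are not given for these samples in the sources used here. No treatment is given either, unless the codes HFD and chow name a diet. The third Sox9 Negative, Sox9 Low and Sox9 High samples carry the code HFD where the other Sox9 samples carry chow. The main fits hold them together with the others of their sort. The labels give each Sox9 sample number 1 code, shared by its Negative, Low and High libraries, and do not say what the code stands for. Nothing states that libraries of a population came from separate animals, so p-values measure only the spread between these samples, which may be technical.

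miRNAs are short RNAs that, bound to Argonaute proteins, repress messenger RNAs that pair with the seed, bases 2 to 8 of the miRNA. Most are cut precisely from a hairpin by Drosha and Dicer, so reads of a miRNA usually share 1 start, and a read that starts elsewhere (an isomiR) carries another seed. Goblet cells are the mucus-secreting cells of the intestinal lining, tuft cells are chemosensory, and Paneth cells secrete antimicrobial proteins at the crypt base. Sox9 is a transcription factor of crypt cells, and Lgr5 marks intestinal stem cells. For mir-5117, RefSeq's gene table lists the name as a synonym of Gas5, a long non-coding RNA that hosts small nucleolar RNAs.

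None of the 6 names (mir-5102, mir-5105, mir-5109, mir-5115, mir-5117-3p and mir-5117-5p) matched an entry of the RefSeq table of mature miRNAs (GRCm38.p6), so 0 member sequences are printed. Shown instead, from that table, are the 6 other miRNAs that stood among the 3 nearest in level across the 8 populations to the leading entries of mir-5102, mir-5105, mir-5109 and mir-5115. Capitals mark the seed of the annotated miRNA. For miR-5126 and miR-3068-3p the likeness was seen at shifted entries, whose reads would have another seed. For miR-5119 it was seen both at a shifted entry and at the bare name. They lie at chr1:84695890-84695911 (miR-5126), chrX:72992113-72992133 (miR-2137), chr15:102973365-102973386 (the Mir196a-2 copy of miR-196a-5p) chr11:98262638-98262656 (miR-5119) and chr11:75463772-75463793 (miR-22-3p) on the plus strand, and at chr12:87437685-87437706 on the minus strand (miR-3068-3p).

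miR-5126: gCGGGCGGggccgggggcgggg

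miR-2137: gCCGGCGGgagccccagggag

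miR-196a-5p: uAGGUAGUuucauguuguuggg

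miR-3068-3p: gGUGAAUUgcaguacuccaaca

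miR-5119: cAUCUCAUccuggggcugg

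miR-22-3p: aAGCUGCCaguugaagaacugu

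The 6 seeds all differ. G and C make up 100% of miR-5126 and 85.7% of miR-2137, against a median of 52.2% over the 1674 distinct mature sequences of the table. miR-5119 has 63.2%, miR-3068-3p and miR-22-3p have 45.5% each, and miR-196a-5p, encoded within the Hox gene clusters, has 40.9%.

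Values are reads divided by 1 factor per library, and the smallest value listed corresponds to 10 to 12 reads, so an entry at 0 may hide up to 9 reads. Total reads ran from 475678 in a tuft library to 30958439 in a CD24Low library. A count of 10 reads was worth 30.998 to 63.5 in the goblet libraries and 42.5 to 68.9 in the tuft libraries, but 1.06 to 23.3 in the other populations. Low values of goblet and tuft libraries are therefore hidden where the same value is listed elsewhere. The labels name no sequencing run, but the library names differ in format. The goblet, tuft and 2 of the Paneth libraries share 1 format without a lane, and the CD24Low libraries have another without a lane. The Sox9, Lgr5 High and other Paneth libraries carry lane numbers. These mostly follow the population, but Sox9 High 3 shares lane 1 with the Sox9 Low libraries. Population cannot be told apart from name format or lane except where stated. Of the miRNAs chosen to mark other cells, both endothelial mir-126 entries were at 0 in all goblet libraries and 6 of 7 leukocyte entries (mir-142, mir-223, mir-150 and mir-155) were at 0 there, with sums of 0 to 66.9. Summed stromal and muscle entries were 275.9 to 425.4 in goblet and 200.7 to 515.0 in Paneth libraries. Summed red-cell entries were 61.7 to 114.3 in goblet but 2374 to 4992 in tuft libraries. The epithelial entries (mir-192, mir-194, mir-215 and the mir-200 family) had 16 of 18 entries listed in goblet libraries, with sums of 1976230 to 3903530.

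The described entries took a much larger part of the goblet libraries than of the others. They made up 10.2%, 12.8%, 6.65% and 17.7% of the total of Goblet 1 to 4. In tuft libraries they took 1.65% to 2.28%, in Paneth 1.22% to 3.87%, in Sox9 Negative 0.432% to 2.76%, in Sox9 Low 0.456% to 0.979%, in Sox9 High 0.290% to 0.594%, in Lgr5 High 0.176% to 0.431% and in CD24Low 0.439% to 1.98%. No other library reached the lowest goblet library. In bulk libraries, fewer cells of a type and less RNA per cell cannot be told apart.

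mir-5102, mir-5105, mir-5109 and mir-5115 had goblet sums above every other library and the mir-5117 arms did not. Over entries that passed a filter of a value of at least 10 in at least 2 libraries (1057 of the table, 73 of the 90), the goblet mean was the highest of the 8 populations for 58 described entries, against 8.7% of all entries. All 4 goblet libraries lay above every other library for 43 of them, of 46 such entries in the table (4.35%). These 43 were 16 of 17 for mir-5105, 14 of 15 for mir-5115, 9 of 17 for mir-5109, 4 of 11 for mir-5102 and 0 of 13 for the mir-5117 arms. The rule used these values, so nothing is read from the counts. The remaining 17 entries did not pass the filter.

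**Figure D1:**
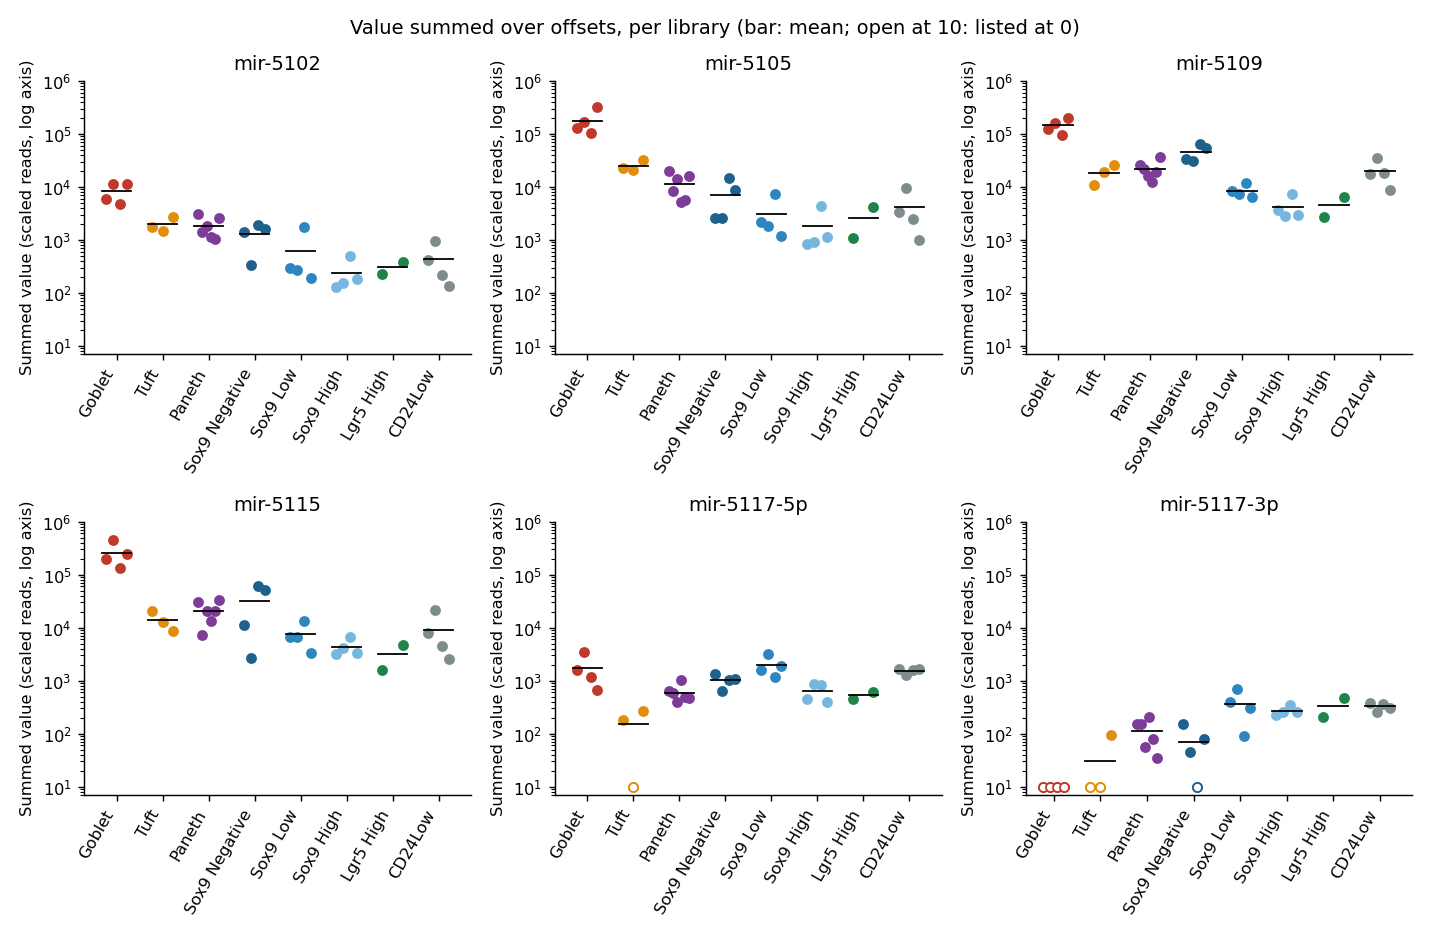
Values summed over all offsets of a name, 1 point per library, on a log axis of scaled reads; bars are population means and open points at 10 are libraries listed at 0. For mir-5102, mir-5105, mir-5109 and mir-5115 the 4 goblet points lie above all others, while mir-5117-3p is listed at 0 in the goblet libraries.

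mir-5115 had the highest values. Its entry without offset was listed at 105497, 213958, 65187 and 135534 in Goblet 1 to 4, a mean of 130044 ± 62931 (SD, n = 4). The tuft libraries gave 9377, 1019 and 1982, and the Paneth libraries 1691 at lowest, 8261 at the median and 14729 at highest. Sox9 Negative gave 3852, 355, 23023 and 18023. Sox9 Low gave 2948, 3060, 6444 and 1334, and Sox9 High 1355, 1748, 2699 and 1391. Lgr5 High gave 695 and 1727, and CD24Low 3045, 9733, 1980 and 935. The goblet libraries did not overlap with any other; below them the order was Sox9 Negative, Paneth, tuft, CD24Low, Sox9 Low, Sox9 High and Lgr5 High, with neighbours in it overlapping. The Sox9 Negative libraries split by lane: the pair on lane 5 held sums over all mir-5115 offsets of 11157 and 2681, and the pair on lane 4 held 61949 and 50927. The lowest goblet sum, 133529, was 2.16 times the highest other library.

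mir-5105 set goblet libraries furthest apart: its lowest goblet sum, 103030, was 3.17 times the highest of the other libraries, 32473 in Tuft 4. At offset -8, the entry with the highest mean, Goblet 1 to 4 were listed at 25721, 37473, 21801 and 70329. Tuft libraries gave 4061, 2369 and 6118, and Paneth libraries ran from 297 through a median of 925 to 1605. Sox9 Negative gave 208, 315, 1992 and 1068, Sox9 Low 340, 213, 1337 and 138, and Sox9 High 146, 114, 829.005 and 165. Lgr5 High gave 271 and 938, and CD24Low 329, 1033, 272 and 63.9. Goblet libraries were highest and tuft libraries next, with no overlap between tuft and any lower population, while the 6 lower populations overlapped.

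mir-5109 had its highest mean at offset 4. Goblet libraries gave 24567, 29019, 17576 and 42937, tuft libraries 2882, 7279 and 4646, and Paneth libraries 1100 to 5397 with a median of 2666. Sox9 Negative libraries gave 2148, 3336, 7561 and 5827, Sox9 Low 929, 725, 1321 and 623, and Sox9 High 410, 401, 733 and 383. Lgr5 High gave 320 and 627, and CD24Low 1835, 4249, 1343 and 739. The goblet libraries again stood above all others, and tuft, Sox9 Negative and Paneth overlapped. Summed over offsets, the lowest goblet library (94626) was 1.46 times the highest other, Sox9 Negative 3 at 64841.

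mir-5102 was the lowest of the 4 names. At offset -6, Goblet 1 to 4 were listed at 1624, 2946, 1386 and 2730, the tuft libraries at 611, 530 and 868, and the Paneth libraries at 296 to 985 with a median of 421. Sox9 Negative gave 240, 94.6, 499 and 379, and Sox9 Low 69.2, 49.2, 652 and 41.4. Sox9 High gave 42.7, 34.9, 157 and 63.4, Lgr5 High 80.0 and 176, and CD24Low 129, 342, 40.1 and 32.4. The goblet libraries did not overlap with the others, but Sox9 Low 3 stood far above its group. The lowest goblet sum, 4870, was 1.56 times the highest other, Paneth 1 at 3115. As a share of the library total this separation was lost: the lowest goblet share of mir-5102 was 0.0960% and the share in Paneth 1 was 0.149%. The other 3 names kept it on that scale, with ratios of 1.92 for mir-5105, 1.27 for mir-5109 and 1.78 for mir-5115.

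The mir-5117 arms did not separate the goblet libraries from the others, and the 2 arms differed from each other. mir-5117-3p was listed at 0 in all 4 goblet libraries at each of its 16 offsets, while its sums were 90.1 to 689.4 in Sox9 Low and 256.5 to 382.1 in CD24Low. Since 10 reads were worth 30.998 to 63.5 in goblet libraries and the sums are spread over offsets, such values may not have been detectable there. mir-5117-5p without offset gave 1534, 3281, 1104 and 679 in goblet libraries, 1060, 2042, 729 and 1232 in Sox9 Low and 1155, 937, 1018 and 1131 in CD24Low. The goblet mean of 1649 ± 1142 (SD, n = 4) was the highest of the 8, beside 1266 ± 558 in Sox9 Low and 1060.5 ± 102 in CD24Low, but those 3 populations overlapped. Summed over offsets, mir-5117-5p was 11.4 times as high in goblet as in tuft libraries and 0.880 times as high as in Sox9 Low. At the bare name, tuft libraries were lowest at 184, 0 and 162.

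Among libraries whose names share the goblet format (the 3 tuft libraries with Paneth 5 and 6), the goblet mean sum was 4.41 times as high for mir-5102, 9.17 for mir-5105, 6.50 for mir-5109 and 13.3 for mir-5115. It was 6.07 times as high for mir-5117-5p, above the ratio for mir-5102, while mir-5117-3p was at 0 in the goblet libraries. Over the 8 population means of log2 values, the leading entries of mir-5102, mir-5105, mir-5109 and mir-5115 correlated with Pearson's r from 0.818 to 0.940, as a description of 8 points that share libraries and depth. The names were selected on high goblet values, so the goblet point is partly fixed by that choice. Over the 7 populations without goblet they were 0.900 for mir-5102 with mir-5105, 0.817 for mir-5102 with mir-5109 and 0.752 for mir-5109 with mir-5115, but 0.573 for mir-5102 with mir-5115, 0.686 for mir-5105 with mir-5109 and 0.223 for mir-5105 with mir-5115.

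The entries nearest to them outside the described names, of 206 with a goblet mean of at least 100, were as follows. Both sides were picked on goblet values, so the goblet point is partly fixed here too, and no r without goblet was taken. Over the 31 libraries r was lower, from 0.491 (mir-3068-3p at offset 2 with mir-5115) to 0.777 (mir-5126 at offset -1 with mir-5105). mir-5126 at offset -1 was most like mir-5105 (r = 0.921 over 8 population means), with 366 ± 154 in goblet libraries (SD, n = 4) and 109 in tuft, the next population. mir-2137 followed mir-5115 (r = 0.842), with 123 ± 41.2 in goblet libraries and 9.79 in Paneth. mir-3068-3p at offset 3 also followed mir-5115 (r = 0.882), with 125 ± 64.7 in goblet libraries and 14.6 in Paneth. mir-196a-2-5p followed mir-5105 (r = 0.868), with 365 ± 276 in goblet libraries and 99.2 in tuft, and mir-196a-1-5p came next (r = 0.822). Nearest to mir-5109 were mir-3068-3p at offset 2 (r = 0.883), with 155.4 ± 128 in goblet and 110.2 in tuft libraries, and mir-22-3p (r = 0.836), with 23886 ± 5445 in goblet and 21167 in Sox9 Negative libraries. mir-5119 at offset -1 was nearest to mir-5102 (r = 0.827), yet its highest mean was in tuft, 2590 against 237 ± 177 in goblet libraries. Nearest to mir-5117-5p were mir-148b-5p (r = 0.936), mir-185-5p (0.923) and mir-1a-2-3p (0.895). Names with numbers near the described ones (mir-5097 to mir-5136 without them) had 120 entries, of which 31 passed the filter, and 110 were at 0 in every goblet library. Their goblet sums, 940.3 to 2680, lay below the Sox9 Low sums of 15203 to 62401, which mir-5099 at offset -2 led with a mean of 33077. The 5 entries of mir-2137 summed to 91.9 to 251.7 in goblet libraries and 0 in tuft and Sox9 Negative libraries.

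The spread of reads over offsets, which the choice of names did not use, was wide for these entries beside other miRNA names, as a description with no test. Of the 700 names in the table, which have a median of 2 entries, 9 have at least 15 entries and 5 of those are described here. Among 181 other names with a summed mean of at least 100, the median share of the value at offset 0 was 97.8% (quartiles 93.5% and 98.8%). The corresponding share was 0.302% for mir-5102, 3.91% for mir-5105, 6.70% for mir-5109, 10.5% for mir-5117-3p, 47.6% for mir-5115 and 77.1% for mir-5117-5p. Even at its best offset, mir-5109 held 16.4% of its value, mir-5117-3p 17.2%, mir-5105 19.7% and mir-5102 27.5%. None of the 181 other names was under 30% at its leading offset, and the lowest was mir-1843b-3p at 39.5%. These shares come from sums over 31 libraries, which the goblet libraries weigh most, so the leading share was also taken within each library. It then had a median of 18.8% for mir-5105 (11.5% to 25.3%), 16.9% for mir-5109 (11.9% to 37.5%), 31.2% for mir-5102 (23.7% to 46.0%) and 41.7% for mir-5115 (27.8% to 55.99%). mir-5102 was under 30% in 15 of 31 libraries, mir-5109 in 30 and mir-5105 in 31. mir-5117-3p, listed in 24 libraries and in no goblet library, had a median of 22.2% (15.4% to 100%) and was under 30% in 17. Among the 181 other names, 0 had a median under 30%, 1 was under 30% in any library, and the lowest median was 50.6% (mir-29a-3p). The names were not matched on level. Entries under 10 reads are listed at 0, which can hide minor offsets of low names and raise their leading share. The other names needed a summed mean of 100, while it was 29953 for mir-5105, 35358 for mir-5109, 45216 for mir-5115, 2000.5 for mir-5102 and 180.8 for mir-5117-3p. Entries of 1 name overlap in sequence and share reads' source, so they are not independent measurements.

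**Figure D2:**
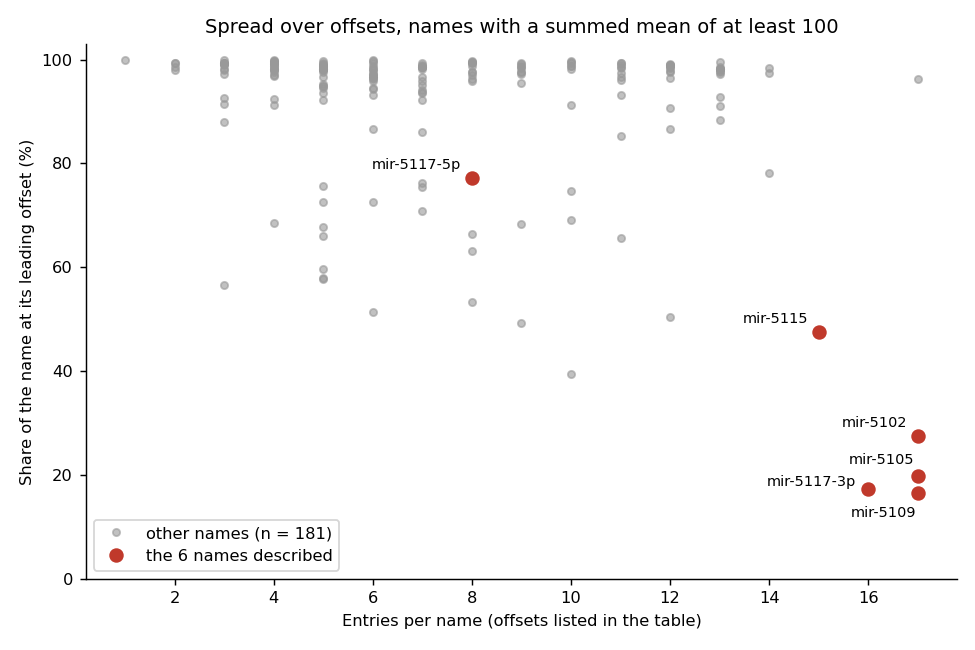
Each point is a miRNA name with a summed mean of at least 100: the number of its entries (x) and the percentage of its value at its leading offset (y). Red points are the described names; over sums of all 31 libraries, mir-5102, mir-5105, mir-5109 and mir-5117-3p lie under 30%, where none of the 181 grey points lies.

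The offset that led also differed between populations. mir-5105 led at offset -8 in all 4 goblet libraries and both Lgr5 High libraries, but at 6 in all 6 Paneth, 4 Sox9 Negative and 4 CD24Low libraries. Offsets -8 to -6 held 42.6% to 48.5% of mir-5105 in goblet libraries and 13.0% to 23.3% in Paneth libraries, while offsets 5 to 8 held 11.5% to 25.7% and 39.96% to 56.4%. Goblet and Paneth ranges therefore did not overlap at either end, whereas the tuft range at -8 to -6 (32.2% to 57.6%) contained the goblet range. mir-5109 led at 4 or 3 in all goblet libraries and at 4 in all 3 tuft libraries, but at -4 in all 4 Sox9 Low libraries. Its entries at negative offsets held 25.2% to 28.2% of the value in goblet, 7.84% to 28.7% in tuft and 53.7% to 56.9% in Sox9 Low libraries. Whole runs of offsets were at 0 in some libraries, which alters these shares. In Tuft 1 and Tuft 3 every mir-5109 offset from -8 to -3 was at 0, while Tuft 4 had all 17 offsets listed. All Sox9 Low libraries were at 0 at -8 and -7. mir-5115 led at 0 in 27 of 31 libraries, with 47.9% to 55.99% of its value there in goblet libraries. mir-5102 led at -6 in 19 libraries and at -3 in 12. Its offset 8 held 18.3% to 25.5% in goblet libraries and 3.87% to 4.93% in Sox9 High. The Sox9 High values behind this were 6.28, 7.45, 23.9 and 7.08, near the listing limit, as 10 reads were worth 3.08 to 11.4 there. These shares were not tested.

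**Figure D3:**
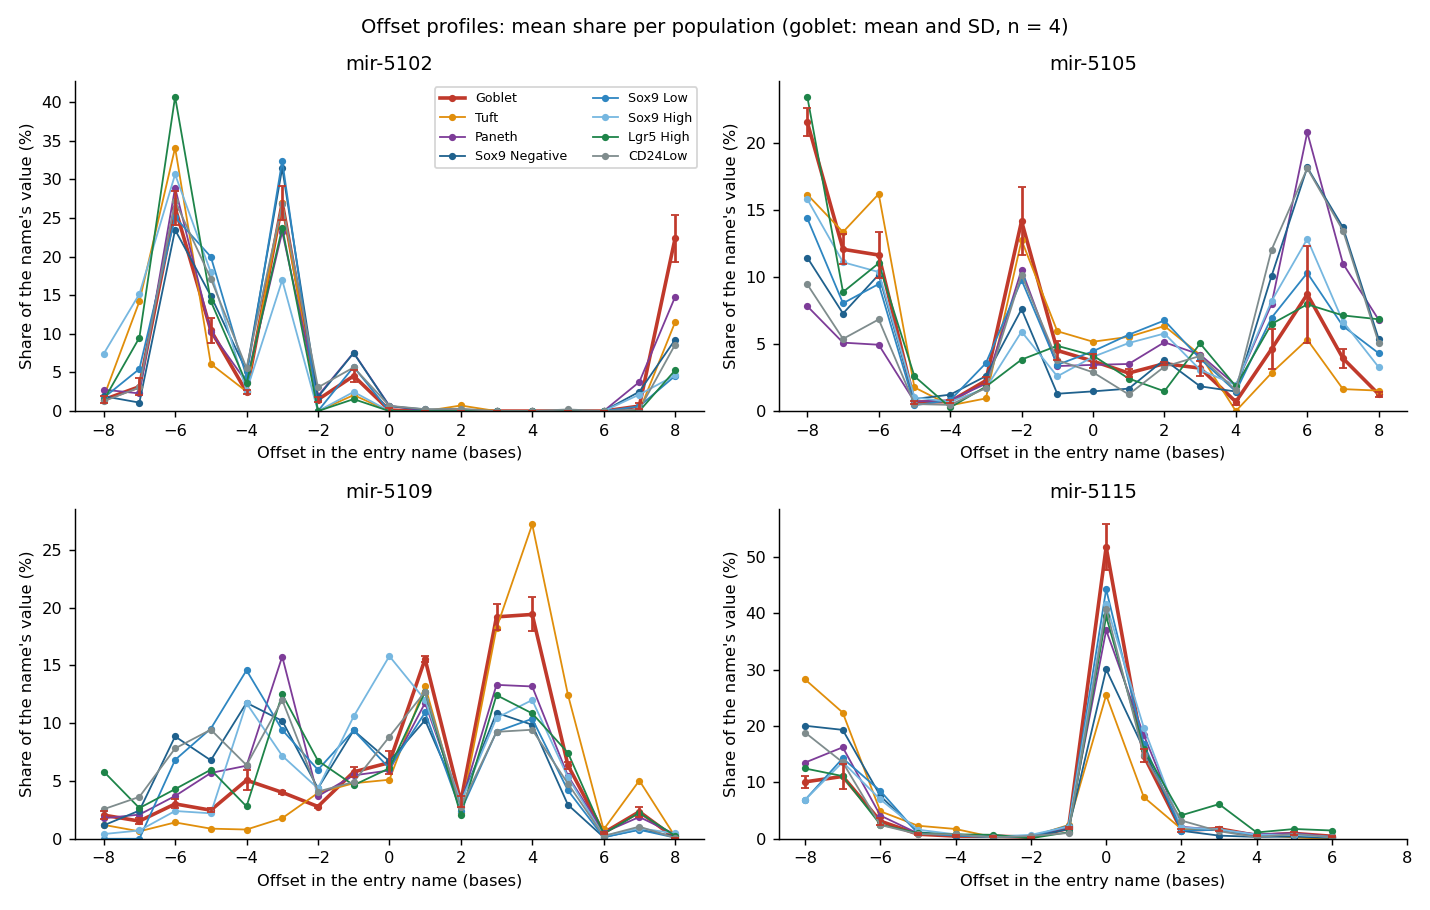
Share of each name's value (y, %) at each offset (x, bases), as the mean per population; red error bars are SD over the 4 goblet libraries. For mir-5105 the goblet line peaks at -8 while the Paneth, Sox9 Negative and CD24Low lines peak at 6, and for mir-5115 all but the tuft line peak at 0.

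No goblet library is on either side of the following comparisons, which were tested with limma on log2(value + 1). Between populations, 1 fit over all 31 libraries and 1057 entries was used. Goblet libraries thus entered its filter and its shared estimate of spread, and the SE and adjusted p depend in part on them. The split within Paneth used the Paneth libraries alone. Calls needed a Benjamini-Hochberg adjusted p below 0.05 together with a log2 difference of 1 or more in size. Since shallow libraries hide low values, each comparison was also made with every value below 100 set to 100. Entries then needed a value above 100 in at least 2 libraries, and between populations the goblet libraries counted. Some mir-5102 entries were tested at the floor only through them. Offset -2 was above 100 in goblet libraries alone. Outside goblet, offset -8 was above 100 only in Tuft 4 (148.9) and offset 7 only in Paneth 1 (182.9).

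mir-5109 was lower in Sox9 Low and Sox9 High than in Sox9 Negative. At offset 3, Sox9 Negative libraries gave 2553, 3624, 8352 and 6280, Sox9 Low libraries 783, 549, 1337 and 593, and Sox9 High libraries 365, 357, 618.05 and 329. Negative libraries lay above all Low and High libraries, and 3 of 4 High libraries lay below every Low library. The log2 difference of Sox9 High from Negative was -3.54 ± 0.48 (SE; limma adjusted p = 1.5e-06), and that of Low from Negative was -2.62 ± 0.48 (limma adjusted p = 0.000111). High against Low at this offset was -0.92 ± 0.48 and did not pass (limma adjusted p = 0.271). In High against Negative, 14 of 17 mir-5109 entries fell, as did 6 of 17 for mir-5105, 6 of 11 for mir-5102 and 3 of 15 for mir-5115. mir-5115 at offset -8 was among them (-3.49 ± 0.61, limma adjusted p = 4.18e-05), but mir-5115 without offset was not (-1.50 ± 0.94, limma adjusted p = 0.227). For mir-5109, Sox9 High 2 and 3 were at 0 from offset -8 to -5. All Sox9 Low libraries were at 0 at -8 and -7, and Sox9 Low 3 also at -6. Calls of mir-5109 at those offsets rest in part on these runs of 0.

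Over all described entries in High against Negative, 29 were called lower and 8 higher, against a background of 11.6% lower and 24.7% higher (36.3% in either direction) among all entries. The median log2 difference was -1.91 for them and 0.32 for all entries. The 8 called higher were all mir-5117-3p. At offset -3, for example, Sox9 High libraries gave 17.6, 15.4, 23.9 and 11.7 and the Negative libraries 0, where 10 reads were worth 10.0 to 23.3, so this difference lies within what the listing limit hides and no fold is given. With the floor of 100, 28 fell and 0 rose (background 18.8% and 14%, or 32.8% in either direction), and no mir-5117-3p entry could be tested. In Low against Negative, 21 were called lower and 4, also mir-5117-3p, higher (background 13.9% and 15.4%), and 12 of the 21 were mir-5109. Scaling the libraries to a common total, which moved the median of all entries from 0.32 to 1.02 in High against Negative and from 0 to 0.64 in Low against Negative, left 17 calls lower with 9 higher and 9 lower with 8 higher. Then 11 and 7 of 17 mir-5109 entries fell. The Sox9 Negative libraries were on lanes 4 and 5, the Low libraries on lane 1 and the High libraries on lane 2 except sample 3 on lane 1, so sort and lane cannot be told apart. Within both lanes the mir-5109 sums of Sox9 Negative (30487 to 34281 on lane 5, 55025 to 64841 on lane 4) lay above the highest Low or High library, 12038. As a share of the library total the gap was much narrower. Sox9 Negative held 0.357% and 0.478% on lane 5 and 1.09% and 1.24% on lane 4, beside 0.329% in Sox9 Low 3. Marker lists moved as well: the stromal and muscle sums were 702.2 to 1060 in Sox9 Negative, 237.4 to 373.1 in Low and 211.7 to 385.2 in High libraries, while the epithelial sums were 3690190 to 6132590, 614794 to 976788 and 705613 to 755254. Of the 15 stromal and muscle entries, 10 were at 0 in all Sox9 Negative libraries, 8 in Low and 8 in High. Unlike the sums, 4 of the 9 entries tested were called higher and 1 lower in High against Negative. In Low against Negative, 0 were called higher and 2 lower. Of 16 epithelial entries, 2 were called higher and 7 lower in High against Negative, and 0 and 7 in Low against Negative. The part of these lists in the result was not tested.

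In Sox9 High against Low, 3 of 73 described entries tested fell and 0 rose (background 2.74% lower, 9.56% higher). They were mir-5109 at offsets -2 (-1.55, limma adjusted p = 0.0178) and -5 and mir-5102 at offset -3 (-1.93, limma adjusted p = 0.0436). mir-5109 at offset -5 was listed at 643, 650, 1478 and 606 in Sox9 Low and at 187, 0, 0 and 111 in Sox9 High. With the 2 values at 0 its fitted difference was -6.02 (limma adjusted p = 0.0436), and it was -2.69 with the floor of 100 (limma adjusted p = 0.00438). Sox9 High 2 and 3 were at 0 at every mir-5109 offset from -8 to -5, but at 408 and 1282 at -4. The floor does not remove such a run of 0, so both differences rest on it. Without Sox9 Low 3 the count was 0, and it was 0 without Sox9 High 2. With the floor of 100, 4 fell and 0 rose (background 4.23% and 6.34%), and 2 entries were called both ways. mir-5102 at -3 was listed at 568 in Sox9 Low 3 and at 78.3, 79.6 and 78.8 in the other Low libraries. Its call was lost without Sox9 Low 3 (limma adjusted p = 0.22), Sox9 High 1 (0.111), Sox9 High 2 (0.0703) and Sox9 High 4 (0.137). With the sample number as a block, 5 entries were called in High against Low, and mir-5102 at -3 was not among them (limma adjusted p = 0.0855).

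Lgr5 High, with 2 libraries, was lower than CD24Low in 9 of 73 described entries tested and higher in 0. This is a smaller share lower than among all entries (background 15.5% lower, 5.01% higher). Of the 9 entries, 6 were mir-5109. At offset 1 of mir-5109, the Lgr5 High libraries gave 332 and 838 and the CD24Low libraries 2444, 5411, 1942 and 1030, without overlap (log2 difference -2.10 ± 0.61, limma adjusted p = 0.0131). With the floor of 100, 14 fell, 12 of them mir-5109, and 0 rose (background 9.94% and 9.09%). Without Lgr5 High 1, leaving 1 library whose spread is assumed like that of the others, 2 entries were called and offset 1 was not among them (-1.44, limma adjusted p = 0.229). The stromal and muscle list was lower in Lgr5 High as well, with 7 of 9 entries called and sums of 37.9 to 103.9 against 846.1 to 2740. Of its 15 entries, 8 were at 0 in both Lgr5 High libraries and 0 in all CD24Low libraries. Its part in the result was not tested.

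Paneth and tuft libraries differed by offset within a name. mir-5105 was lower in Paneth at offsets -8 (-2.34 ± 0.84, limma adjusted p = 0.022) and -6 (-2.99 ± 0.91, limma adjusted p = 0.00787), and higher at offset 7 (1.99 ± 0.67, limma adjusted p = 0.0154). The call at -8 was lost after scaling to a common total (limma adjusted p = 0.0533), without Tuft 1 (0.0596), without Tuft 4 (0.0958) and without Paneth 4 (0.052). mir-5109 at offset -3 was listed at 2251 to 5065 in the Paneth libraries, median 3024, and at 0, 0 and 1366 in the tuft libraries. Every Paneth library was above every tuft library, and with the floor of 100 the log2 difference was 3.70 ± 0.55 (limma adjusted p = 4.18e-06). Tuft 1 and Tuft 3 were at 0 at every mir-5109 offset from -8 to -3, but at 692 and 675 at -2. Paneth 3 was at 0 from -8 to -5 and at 1320 at -4. The floor does not remove such runs of 0, so the calls at these offsets rest in part on them. Their cause was not tested. At offset 4 the same name gave -0.79 ± 0.49 and was not called (limma adjusted p = 0.209). mir-5117-5p without offset was also higher in Paneth, by 1.67 ± 0.40 with the floor (limma adjusted p = 0.00138). Of 73 described entries tested, 21 were higher and 5 lower, beside 39.7% higher and 6.24% lower among all entries. With the floor of 100 the split turned to 5 higher and 8 lower of 61 tested (background 16.3% and 11.4%). Under both, 5 were called higher and 5 called lower. The red-cell list moved too, at 12.0 to 50.4 in Paneth against 2374 to 4992 in tuft libraries, with 4 of its 5 entries at 0 in each. Its part in the result was not tested.

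**Figure D4:**
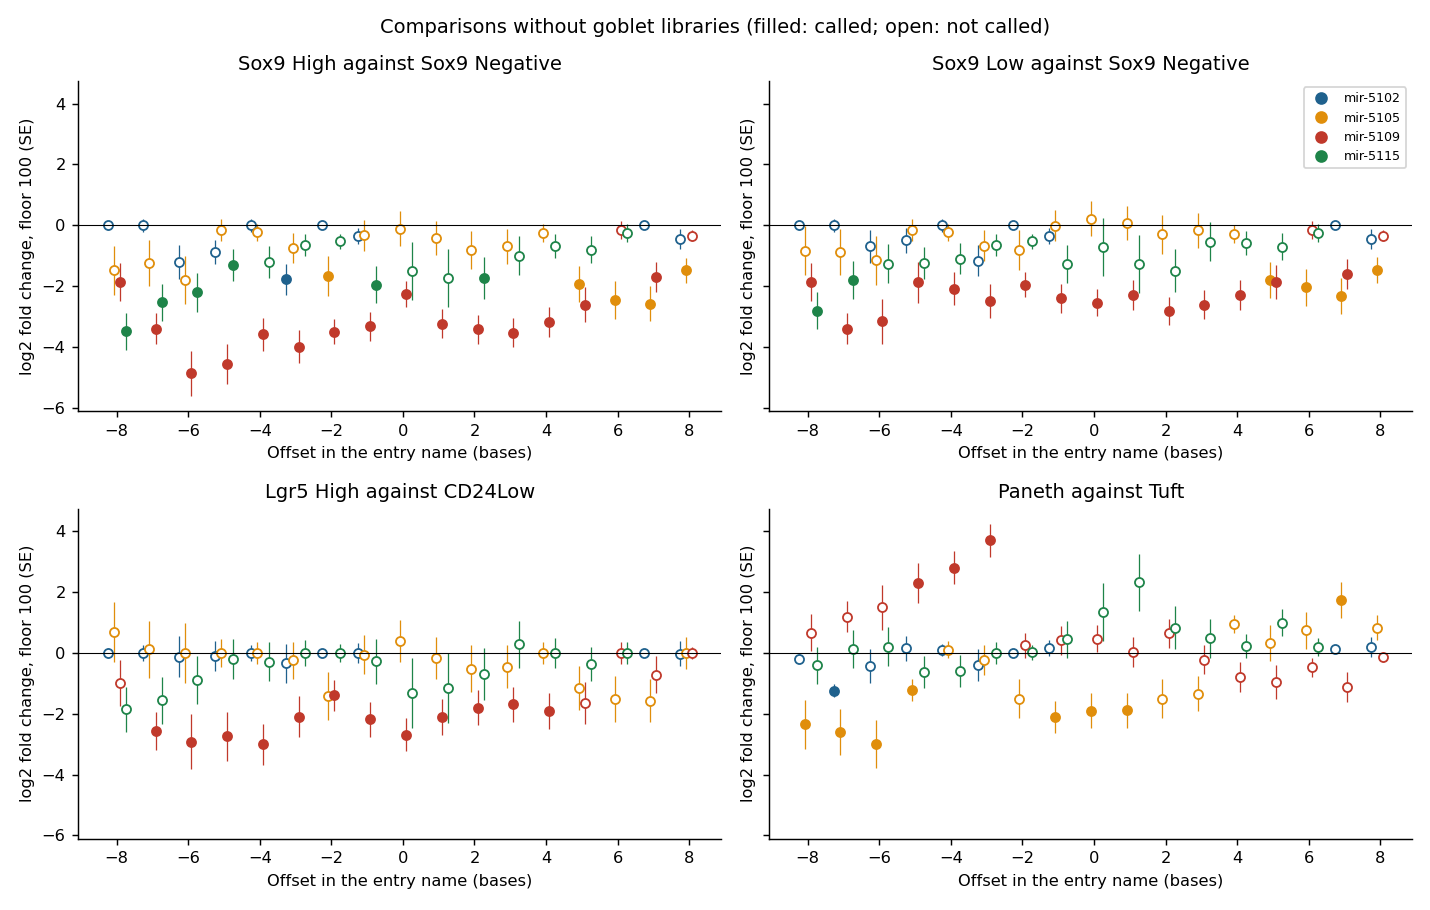
log2 fold change with SE (y, values below 100 set to 100) at each offset (x, bases) for 4 names in 4 comparisons between populations other than goblet. Filled points were called. The shared fit held the goblet libraries. mir-5109 lies below 0 in both Sox9 comparisons. In Paneth against Tuft it lies above 0 at all negative offsets, with calls at -5 to -3. For this name, Tuft 1 and Tuft 3 were at 0 from -8 to -3, and Sox9 High 2 and 3 from -8 to -5.

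Paneth 5 and 6, whose names have the goblet format, were set against Paneth 1 to 4 within the Paneth libraries. Of 71 described entries tested, 1 was higher and 3 lower, beside 0.708% higher and 18.4% lower among 706 entries, and with the floor of 100 the counts were 0 and 0 by limma (background 0.322% and 5.47%, or 5.79% in either direction), with 1 entry at an unadjusted p under 0.05. The higher entry was mir-5115 at offset -8 (1.00 ± 0.24, limma adjusted p = 0.0307). Its call was lost with a common library total (limma adjusted p = 0.0904), with the floor (0.0513) and without any 1 of Paneth 2 to 6 (0.0688 to 0.24). The summed mir-5115 value was 21033 and 32842 in Paneth 5 and 6 and 7352 to 30986 in Paneth 1 to 4, which overlapped.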

How the data were processed

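Small RNA libraries of 31 sorted samples in 8 populations were read from 1 deposited table. Its values are a signal: the authors divided reads by 1 factor per library, as the deposited values show, since all are whole multiples of 1 step (tolerance 0.001 reads). The submitters' processing notes name build mm9; for aligner, counter and scaling, nothing is stated in the labels. Of 34 columns, 3 matched no sample and were not used; 3 Progenitor samples were not analysed here. Entries with a value of at least 10 in at least 2 libraries were tested with limma 3.58.1 (R 4.3.3; trend in the prior variance, 1 fit over 8 populations, log2(value + 1), two-sided, Benjamini-Hochberg). The fit was tested on simulated data. Alternatives were a pseudocount of 10, no filter, a common library total, a floor of 100, a replicate block, and leaving out samples. Named entries are, per name, the one with the highest mean over 31 libraries and up to 3 further with a mean of at least 100 in any population, plus up to 3 other entries per name with a goblet mean of at least 100 and the highest r, and entries called in a comparison; mir-5099 at offset -2 and mir-1843b-3p were named after their values were seen. The entries and lists were chosen with earlier results of these data known.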

Additional observations from a re-analysis of the deposited data

Results flagged for a closer look

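In the groups of 4 to 6 libraries, 5 of 41 summed values had a library whose gap to its nearest neighbour was large for the range of its group; chance flags about 1 in 20 groups. All 5 came from the third Sox9 samples, the ones with the code HFD. For mir-5102, Sox9 Low 3 held 1767 beside 190.2 to 296.8 in the others, and Sox9 High 3 held 500.6 beside 127.6 to 182.8. For mir-5105, Sox9 Low 3 held 7249 beside 1175 to 2163, and Sox9 High 3 held 4370 beside 855.2 to 1141. Over all described entries, Sox9 High 3 held 19955 beside 8246 to 9183. The sums overlap, as the last holds the other names. These libraries were the third of their sorts, with 1744418 (Low) and 2945821 (High) reads, the fewest of the 4 in each sort. Sox9 Negative 3 was also the highest of its group for mir-5105, at 14576, with Sox9 Negative 4 at 8750 on the same lane. The part of the code, depth and lane was not tested.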

How the results depend on the processing

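Counts of called entries moved by more than 1.5 times in these cases. With the floor of 100, Paneth against Tuft had 13 called (26 without it), Lgr5 High against CD24Low 14 (9) and Paneth 5 and 6 against Paneth 1 to 4 had 0 (4). Sox9 High against Sox9 Low had 3 called, but 1 with no filter, 1 with a common library total and 1 without the third samples. The other Sox9 counts moved less without the third samples: 29 lower and 4 higher in High against Negative, and 19 lower and 8 higher in Low against Negative. Leaving out 1 library at a time gave 19 to 27 for Paneth against Tuft, 0 to 2 for Sox9 High against Low, 29 to 40 for High against Negative, 20 to 35 for Low against Negative, 2 to 12 for Lgr5 High against CD24Low, 1 to 5 within Paneth, and 56 to 60 for the goblet count of 58. Of 369 alternatives for the 28 named calls, 297 kept the call and direction, 72 lost the call and 0 reversed; 12 of the losses came with a common library total. The cause was not tested. Over all entries tested, the floor of 100, which leaves 473 of 1057 to test, took the calls from 420 higher and 66 lower to 77 and 54 (Paneth against Tuft), 130 to 50 (Sox9 High against Low), 261 higher and 123 lower to 66 and 89 (High against Negative), 310 to 137 (Low against Negative), 217 to 90 (Lgr5 High against CD24Low) and 135 to 18 (within Paneth). No filter took Lgr5 High against CD24Low to 389, and leaving out Sox9 High 4 took Sox9 High against Low to 77.

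With the replicate block, Sox9 High against Low had 5 called, High against Negative 34 and Low against Negative 24; over all entries, High against Low went from 130 to 69. Of 17 named Sox9 calls, 4 were lost under it: mir-5102 at offset -3 in High against Low, at 8 in High against Negative (limma adjusted p = 0.0561) and in Low against Negative (0.0738), and mir-5115 at -7 in Low against Negative (0.0971). The labels share 1 code per number across the 3 sorts, with no stated meaning, so whether the numbers pair the samples is not settled. Deviations of same-numbered samples correlated at 0.0998 to 0.198 for High and Low, 0.021 to 0.105 for High and Negative and -0.021 to 0.180 for Low and Negative. The planned tests on counts were not run. Depth limits low values: 0 may be up to 9 reads.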
